A study of Bos taurus with 12 samples.

Results

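The matrix and adhesion genes of the bovine corpus luteum were followed here: fibronectin, collagens, laminins, matrilins, integrins, matrix metalloproteinases (MMPs), ADAMTS proteases and the tissue inhibitors of metalloproteinases (TIMPs). Members were all probes whose gene symbol was FN1 or began with COL and a digit, LAMA, LAMB or LAMC and a digit, MATN, ITGA, ITGB and a digit, MMP and a digit, TIMP and a digit, or ADAMTS. This gave 56 probes for 54 of the 14970 genes named on the array. By class there were 6 genes of fibrillar collagens, 6 of the basement membrane, 5 of other collagens, 2 of adhesive glycoproteins, 12 of receptors, 15 of proteases and 4 of inhibitors. Another 4 genes met the rule by the letters of their names only, COL4A3BP, ITGB1BP1, ITGB3BP and ITGB4BP, and encode intracellular proteins rather than matrix.

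The corpus luteum is the progesterone-secreting gland that forms in the ovary from the ovulated follicle, and it was sampled from Japanese Black cows without any treatment named in the labels. The group NP15 held 4 cows on day 15 of the estrous cycle, P15 4 cows on day 15 of gestation and P18 4 cows on day 18 of gestation, counting the day of insemination as day 1. Each animal gave 1 array, with 1 dye (Cy3), so n = 4 animals per group. The cows' ages, and whether an embryo was found at collection, are not given in the sources used here, and whole gland tissue was used, so several cell types share each RNA sample.

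The extracellular matrix holds fibrillar collagens, which bear load in the stroma, and basement membranes, thin sheets of type IV collagen and laminin under vessels and around cells. Fibronectin and other glycoproteins link these fibres to integrins, paired alpha and beta chains in the cell membrane that anchor the cytoskeleton. MMPs and ADAMTS proteases cut or process the matrix and TIMPs block the MMPs. In the corpus luteum the matrix is laid down as the gland and its dense capillary bed form after ovulation, and it is taken apart when the gland regresses.

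The collagen triple helix requires glycine at each turn of its short repeat of residues, and all glycine codons begin with GG. The 60-base probes of 5 collagens held GG at that spacing, and they are printed because the repeat can be seen in them. Capitals mark GG and the base after it wherever they recur at a period of 9 bases.

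COL4A1, probe ABR1942: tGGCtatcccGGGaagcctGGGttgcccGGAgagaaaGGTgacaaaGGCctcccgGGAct
COL2A1, probe ABR1035: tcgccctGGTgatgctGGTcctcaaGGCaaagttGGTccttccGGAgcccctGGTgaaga
COL2A1, probe ABR1229: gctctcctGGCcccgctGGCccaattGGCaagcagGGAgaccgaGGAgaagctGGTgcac
COL11A1, probe ABR1909: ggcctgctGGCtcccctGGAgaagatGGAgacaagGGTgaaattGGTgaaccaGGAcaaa
COL6A2, probe ABR1941: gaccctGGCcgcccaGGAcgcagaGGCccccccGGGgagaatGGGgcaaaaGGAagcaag
COL18A1, probe ABR1768: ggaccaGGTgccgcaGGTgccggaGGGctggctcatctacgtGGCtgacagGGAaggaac

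The COL4A1 probe held 7 repeats in the 7 places possible. Both COL2A1 probes, the COL11A1 probe and the COL6A2 probe held 6 of 6, while the COL18A1 probe held 5 of 6. Read in the frame of the capitals, the COL18A1 probe has 1 stop codon, so its capitals are not a run of glycine codons, and the other 5 probes have 0. Over all 15208 probes, read on both strands, 10 (0.0658%) held at least 5 GG in one phase of 9 bases, and 6 of these were the probes printed above. The probe of conglutinin, a serum lectin with a collagen-like stalk, held 7. The other 10 collagen probes had fewer than 5, among them those of COL1A1, COL1A2 and COL3A1. The collagen probes had a median base composition of 53.3% G and C, against 43.3% for all probes.

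Values are on a log2 scale on which 0 stands for a signal at the array's 75th percentile, and levels of different probes are not compared. Testing required a signal well above background on 3 or more arrays in at least 1 group, which held for 49 of the 54 genes. COL9A1, MMP3, MMP20, ITGA2 and ITGB6 did not reach that level in any group. The share of all probes well above background was 79.6% to 85.6% on NP15 arrays, 75.3% to 80.5% on P15 arrays and 67.5% to 72.6% on P18 arrays, and the lowest value that counted as well above background rose from between -8.09 and -7.34 in NP15 to between -6.08 and -5.36 in P18. NP15 and P15 lay on slide 1, in slide rows 1 and 2, and P18 alone on slide 2, in slide row 2. For P18, slide and group therefore cannot be told apart. Slide row 1 held only cyclic cows and slide row 2 only pregnant cows, so pregnancy and slide row cannot be told apart either. P18 against NP15 also sets a later day and pregnancy together against the cycle, and these cannot be told apart.

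NP15 replicate 4 stood apart from the other NP15 arrays. In an oval area from row 66 to 156 and column 23 to 53 its probes read low, with a median deviation of -1.19 over 1980 probes. Among the members, the probes of ITGA5, TIMP4, MMP23B, TIMP1, COL4A3BP, COL1A2, ITGB4BP, ITGB3 and FN1 (both) and the second COL2A1 probe lay inside it. Differences from NP15 for FN1, COL1A2, TIMP1, TIMP4, COL4A3BP, ITGA5, ITGB3, ITGB4BP and MMP23B are given also without it. On P18 replicate 1 a dim area of 95 probes held no member.

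**Figure D1:**
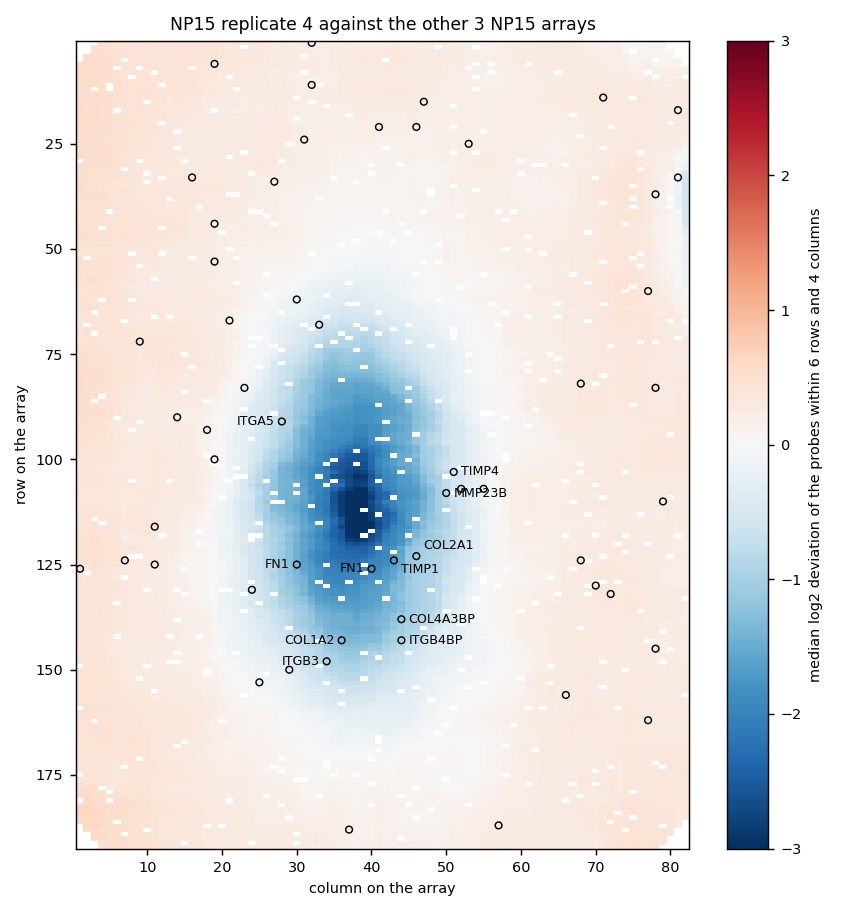
Position of the member probes (open circles) on NP15 replicate 4, by row and column of the array; colour is the median log2 deviation of the neighbouring probes within 6 rows and 4 columns from the other NP15 arrays. The oval in blue reads low, and the named circles are the member probes whose neighbourhood lay below -0.5.

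The first comparison set pregnancy against the cycle on the same day. Of the 49 members tested 1 gene was called in P15 against NP15, ITGB5, which was higher (2.04% of members, against 0.976% of all 12397 genes at an adjusted p under 0.05). No member was called as lower by limma, against 0.581% of all genes, and 1 was lower at an unadjusted p under 0.05, COL10A1, whose P15 arrays all lay below its NP15 arrays (-0.72, SE 0.24, adjusted p = 0.317). By the same unadjusted p, 2 members were higher, ITGB5 and COL6A2 (0.74, SE 0.27, adjusted p = 0.410). These 3 of 49 are 6.12%, against 8.74% of all genes at that p. The median log2 difference of the members was -0.08, and that of all genes -0.06.

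ITGB5 encodes the beta 5 integrin chain, which pairs with the alpha V chain to bind vitronectin. Its values were 5.09, 5.17, 5.28 and 5.43 on the NP15 arrays, 6.88, 6.83, 6.81 and 6.58 on the P15 arrays and 6.55, 6.48, 6.59 and 6.18 on the P18 arrays. All 8 arrays from pregnant cows, which were all in slide row 2, lay above all 4 from cyclic cows, all in slide row 1. Against NP15, ITGB5 rose 2.90-fold in P15 (log2 difference 1.53, SE 0.12, limma adjusted p = 0.000109) and 2.31-fold in P18 (1.21, SE 0.12, adjusted p = 8.37e-05).

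The ITGB5 probe sits at the array's edge, in row 1. The other 61 tested probes of that row differed by a median of 0.46 between P15 and NP15, and 4 of them by more than ITGB5. After subtraction of the median deviation in nearby rows the ITGB5 difference was 1.104 (adjusted p = 0.00107) in P15 and 0.72 (adjusted p = 0.000638) in P18. Over all genes, 115 of the 121 called in P15 against NP15 lay in the outer 24 rows on each side, and with those rows left out limma called 0 of 9337 genes (397 at an unadjusted p under 0.05) and no member. The part of array position in the ITGB5 difference beyond these values was not tested.

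Among the other ligands and receptors, no difference passed. FN1 differed by 0.14 (SE 0.34) and COL1A2 by -0.08 (SE 0.26), in both cases with NP15 replicate 4 in the low area, and without it by -0.25 (SE 0.21) and -0.26 (SE 0.25). COL1A1, the other type I chain, differed by -0.50 (SE 0.28, adjusted p = 0.703). ITGB1 differed by -0.02 (SE 0.13) and ITGAV by 0.02 (SE 0.18). The ITGB1 probe lies in row 188, and after adjustment for nearby rows its difference was 0.34 (adjusted p = 0.720). The widest differences that did not pass were those of ADAMTS5, at -0.78 (SE 0.45), MMP7, at 0.76 (SE 0.56), and ITGA4, at -0.75 (SE 0.54).

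**Figure D2:**
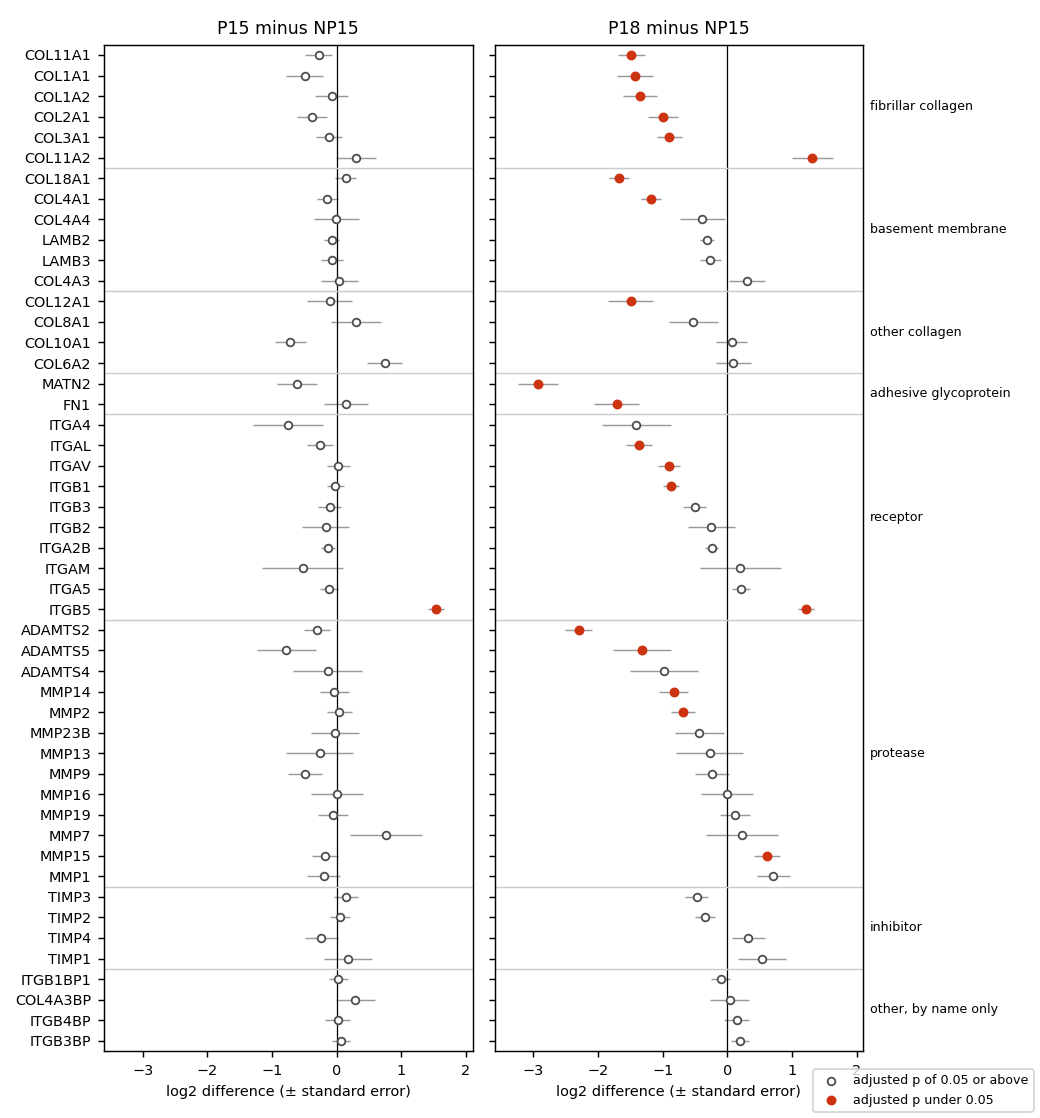
log2 difference of each of the 49 tested genes, with its standard error, for P15 minus NP15 (left) and P18 minus NP15 (right), grouped by class; filled points passed limma's adjusted p of 0.05. On the left only ITGB5 passed; on the right 17 genes passed below 0 and 3 above.

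In P18 against NP15, 17 of the 49 members were lower and 3 higher. For all 12397 genes 18.6% were lower and 10.3% higher (28.9% called in all), and for the members 34.7% and 6.12% (40.8% in all). The median log2 difference of the members was -0.34, and that of all genes -0.06. Since whole tissue was used, fewer cells of a type and less RNA per cell cannot be told apart in this and the following values. Of all called genes 35.7% were higher, and 67.5% when each array was scaled to its median, 55.6% with normexp background correction and 56% with no filter on dim probes. Median scaling moved the median of all genes to 0.18 and left 14 members lower and 6 higher. The called members ADAMTS2, COL11A2, COL1A1, COL3A1, ITGB1 and ITGB5 lay in the outer 24 rows on each side. In those rows 32.7% of all tested genes were called, against 27.7% in the inner rows.

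Fibrillar collagens were lower in P18 in 5 of 6 genes (83.3%, against 18.6% of all genes). COL1A1, a chain of type I collagen, was at -0.60, -0.60, -0.90 and 0.13 on the NP15 arrays, -1.38, -1.39, -0.71 and -0.49 on the P15 arrays and -1.33, -2.06, -2.12 and -2.18 on the P18 arrays. The P18 arrays lay below all NP15 arrays and overlapped P15 through P18 replicate 1, the highest of them. COL1A1 fell 2.69-fold against NP15 (log2 difference -1.43, SE 0.28, limma adjusted p = 0.00357). COL1A2, its partner chain, was at 1.04, 1.30, 0.70 and 0.28 in NP15, 0.30, 0.52, 1.13 and 1.07 in P15 and -0.08, -0.55, -0.76 and -0.69 in P18. No P18 array reached the other groups. COL1A2 fell 2.56-fold against NP15 (-1.35, SE 0.26, adjusted p = 0.00284), and without NP15 replicate 4, which was the lowest NP15 array, 2.90-fold (-1.54, SE 0.25, adjusted p = 0.0014).

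COL3A1, which forms type III collagen of soft tissue and vessel walls, read 5.28, 5.34, 4.90 and 5.54 in NP15, 5.04, 4.77, 5.34 and 5.42 in P15 and 4.80, 4.28, 4.26 and 4.12 in P18. It was 1.87-fold lower in P18 than in NP15 (-0.90, SE 0.20, adjusted p = 0.00613), and P18 replicate 1 was the only P18 array within the P15 range. COL11A1, of the minor fibrillar type XI collagen, had values of -2.52, -3.13, -2.70 and -2.36 in NP15, -3.08, -3.08, -2.99 and -2.69 in P15 and -3.75, -4.59, -4.03 and -4.29 in P18. Its P18 arrays were all below the other 8, and the fall against NP15 was 2.80-fold (-1.49, SE 0.21, adjusted p = 0.000459).

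COL2A1, best known as the main collagen of cartilage, was measured by both of its glycine repeat probes printed above. ABR1229 is labelled COL2A1 on the array, while ABR1035 is labelled CB11, cyanogen bromide, and was assigned to COL2A1 through the bovine gene table. The brighter one, ABR1035, was lower in P18 than in NP15 (difference -0.997, SE 0.234, adjusted p = 0.00876) and the other, ABR1229, fell by 1.29 (SE 0.17, adjusted p = 0.000278). The P18 arrays were below all NP15 arrays on both. COL11A2, the partner of COL11A1, was the exception of the class and rose in P18 (1.31, SE 0.31, adjusted p = 0.00942). Only 3 NP15 arrays, 1 P15 array and 1 P18 array had it well above background, so its values lay near background in most arrays.

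Basement membrane genes were lower in 2 of 6 cases (33.3%, against 18.6% of all genes) and higher in none. COL18A1, whose C-terminal fragment is endostatin, an inhibitor of vessel growth, had values of -1.33, -1.52, -1.43 and -1.66 in NP15, -0.88, -1.41, -1.41 and -1.68 in P15 and -3.20, -3.04, -3.10 and -3.31 in P18. The P18 arrays were tightly grouped and more than 1 log2 unit below every other array. COL18A1 fell 3.20-fold against NP15 (-1.68, SE 0.16, adjusted p = 5.26e-05). COL4A1, the main chain of basement membrane collagen, was at -3.34, -3.64, -3.58 and -2.91 in NP15, -3.41, -3.47, -3.75 and -3.40 in P15 and -4.56, -4.44, -4.60 and -4.60 in P18. All P18 arrays lay below the other 8, and the fall against NP15 was 2.27-fold (-1.19, SE 0.16, adjusted p = 0.000353).

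The remaining genes of this class did not pass. COL4A3 and COL4A4, chains of the specialised type IV collagen of kidney and lung, differed by 0.30 (SE 0.28) and -0.39 (SE 0.35). The laminin chains LAMB2 and LAMB3 differed by -0.32 (SE 0.11, adjusted p = 0.0573) and -0.26 (SE 0.17). Without NP15 replicate 4 the LAMB2 difference of -0.37 passed (adjusted p = 0.0334), and with normexp background correction it was 0.002 (adjusted p = 0.990).

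Of the other collagens, COL12A1 was lower. COL12A1 binds the surface of type I fibrils and read 0.63, 0.17, 0.30 and 1.58 in NP15, 0.20, 0.49, 0.22 and 1.34 in P15 and -0.23, -1.08, -0.88 and -1.12 in P18. Replicate 4 was the highest array in both NP15 and P15, and no P18 array overlapped them. The fall was 2.82-fold against NP15 (-1.49, SE 0.35, adjusted p = 0.00838). COL6A2, of the beaded type VI filaments, differed by 0.09 (SE 0.27), COL8A1 by -0.53 (SE 0.38) and COL10A1 by 0.06 (SE 0.24), none of which passed.

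Both adhesive glycoproteins were lower in P18. FN1, fibronectin, a large ligand of integrins, was at 2.59, 2.58, 2.42 and 0.95 in NP15, 2.15, 1.99, 2.49 and 2.48 in P15 and 0.50, 0.00, 0.25 and 0.93 in P18 by its brighter probe, ABR7104. NP15 replicate 4 sat next to the highest P18 array, and the other 7 arrays of NP15 and P15 were more than 1 log2 unit above. FN1 fell 3.28-fold against NP15 (-1.71, SE 0.34, limma adjusted p = 0.00376), and without NP15 replicate 4 the fall was 4.31-fold (-2.11, SE 0.21, adjusted p = 0.000136). Its other probe, ABR489, fell by 1.56 (SE 0.43, adjusted p = 0.0195), with NP15 replicate 4 at -3.99 and the other NP15 arrays between -1.95 and -1.74.

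MATN2, matrilin 2, an adaptor of filamentous networks around basement membranes, was at -4.82, -5.96, -5.42 and -4.41 in NP15, -5.69, -5.80, -6.02 and -5.57 in P15 and -8.38, -8.34, -8.12 and -7.50 in P18. None of its P18 signals was well above background, and replicates 1 to 3 sat at the lowest value of the array. MATN2 was at least 1.59-fold lower in P18 than in NP15 (group means -8.08 and -5.15, adjusted p = 9.42e-05). Such a lower bound replaces each dim array's value with the lowest signal that counted as well above background there, where that was higher. With normexp background correction the difference was -0.72 (adjusted p = 0.0170).

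Integrins, the receptors, were lower in 3 of 10 tested genes (30%, against 18.6% of all genes) and higher in 1 (10%, against 10.3%). ITGB1, the beta 1 chain shared by most collagen, laminin and fibronectin receptors, was at 0.88, 0.70, 0.88 and 1.1005 in NP15, 0.88, 0.69, 0.79 and 1.12 in P15 and 0.04, -0.10, -0.08 and 0.19 in P18. No P18 array overlapped the other groups, and the fall against NP15 was 1.84-fold (-0.88, SE 0.13, adjusted p = 0.000566). ITGAV, the alpha V chain, read 1.22, 0.88, 0.69 and 0.42 in NP15, 0.50, 1.02, 0.86 and 0.92 in P15 and -0.05, -0.34, -0.06 and 0.05 in P18. All P18 arrays were again lowest, by 1.87-fold against NP15 (-0.90, SE 0.18, adjusted p = 0.00331). The chain that was higher was ITGB5, a partner of ITGAV, as given above.

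ITGAL, the alpha L chain of leukocytes, was also lower by the test (-1.37, SE 0.20, adjusted p = 0.000659). No P18 array had it well above background, and all 4 P18 values were the lowest of their arrays, so no fold is given. With normexp the difference was 0.05 (adjusted p = 0.794), and the call ended. ITGA5, the alpha chain of the main fibronectin receptor, differed by 0.21 (SE 0.14, adjusted p = 0.266), and it passed as higher with quantile normalization (0.39) and with median centring (0.45). ITGB2, the beta chain of leukocyte integrins, differed by -0.25 (SE 0.36, adjusted p = 0.643), with replicate 4 the highest array in each of the 3 groups. Without NP15 replicate 4 the ITGA5 difference was 0.18 (adjusted p = 0.368). ITGA4, ITGB3, ITGA2B and ITGAM differed by between -1.41 and 0.20 and did not pass. ITGB3 passed as lower without NP15 replicate 4 (-0.65, adjusted p = 0.0113), but it was not well above background in P18.

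**Figure D3:**
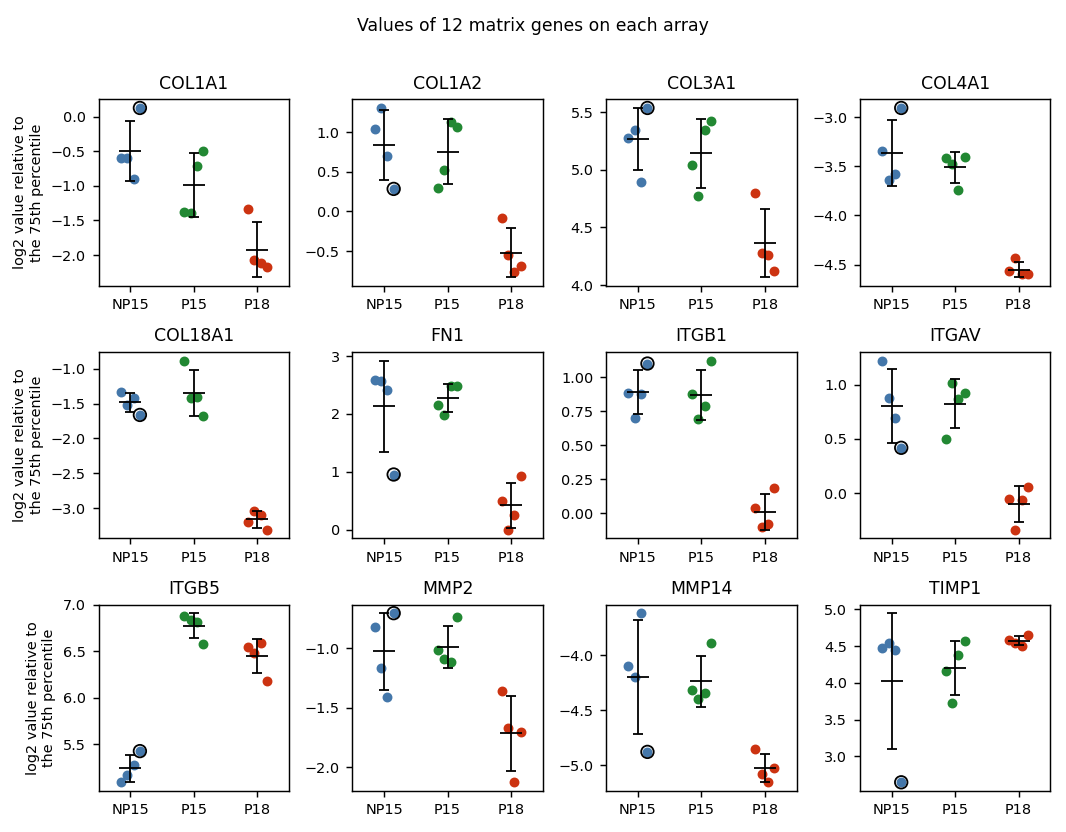
log2 values of 12 genes on each array (points), with the group mean and SD (bars, n = 4); the point in a black ring is NP15 replicate 4. The means of the collagens, FN1, ITGB1 and ITGAV were lowest in P18, ITGB5 was higher in both pregnant groups, and TIMP1 had its lowest value on NP15 replicate 4.

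Proteases moved in both directions, with 4 of 13 lower (30.8%, against 18.6% of all genes) and 1 higher (7.69%, against 10.3%). MMP2, gelatinase A, read -0.82, -1.17, -1.41 and -0.71 in NP15, -1.02, -1.09, -1.12 and -0.74 in P15 and -1.36, -1.67, -2.13 and -1.70 in P18. The P18 arrays were below all P15 arrays, and P18 replicate 1 reached into the NP15 range. The fall against NP15 was 1.61-fold (-0.69, SE 0.19, limma adjusted p = 0.0200). The call was lost without NP15 replicate 1 (-0.62, adjusted p = 0.0565), without P18 replicate 3 (-0.55, adjusted p = 0.0563) and with median centring (-0.45, adjusted p = 0.0867).

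MMP14, the membrane-bound protease that activates pro-MMP2, was at -4.09, -4.20, -3.62 and -4.88 in NP15, -4.32, -4.39, -4.34 and -3.89 in P15 and -4.85, -5.08, -5.15 and -5.02 in P18. Only NP15 replicate 4 overlapped P18. The fall was 1.78-fold (-0.83, SE 0.23, adjusted p = 0.0182), and 2.08-fold without that array (-1.06, adjusted p = 0.00135). With normexp it was -0.35 (adjusted p = 0.110) and with median centring -0.59 (adjusted p = 0.0657), and neither passed.

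ADAMTS2, which cuts the N-terminal propeptide off procollagens, read -5.72, -6.14, -6.08 and -5.35 in NP15, -6.30, -6.14, -6.17 and -5.91 in P15 and -8.38, -8.34, -8.12 and -7.65 in P18. All 4 P18 values were the lowest of their arrays and none was well above background. The difference passed (-2.30, SE 0.21, adjusted p = 3.94e-05), but the bound was 1.00-fold, and with normexp the difference was -0.47 (adjusted p = 0.0181). ADAMTS5, an aggrecanase, passed narrowly (-1.32, SE 0.45, adjusted p = 0.0470). NP15 replicate 3, at -3.25, was the highest array and P18 replicate 3, at -7.03, the lowest. Without the former the difference was -0.86 (adjusted p = 0.0884) and without the latter -0.96 (adjusted p = 0.123), and the call was also lost when NP15 replicate 4 or any 1 other array of P15 or P18 was left out (adjusted p 0.0567 to 0.0624). It was lost as well with normexp (-0.39, adjusted p = 0.325), median centring (-1.08, adjusted p = 0.0775) and quantile normalization (-1.38, adjusted p = 0.0583), on the 8 arrays alone (adjusted p = 0.0998) and with same-numbered arrays as blocks (adjusted p = 0.0934).

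MMP15, another membrane-bound MMP, was the protease that was higher in P18. Its values were -5.82, -5.89, -5.66 and -5.66 in NP15, -6.39, -5.31, -6.03 and -6.02 in P15 and -5.13, -5.42, -4.92 and -5.10 in P18. The P18 arrays were above all NP15 arrays, by 1.53-fold on average (0.62, SE 0.20, adjusted p = 0.0405). That call was lost without NP15 replicate 1, 2 or 3, P15 replicate 3 or 4 or P18 replicate 1, 3 or 4 (differences 0.54 to 0.65, adjusted p 0.0507 to 0.106). It was also lost with same-numbered arrays as blocks (adjusted p = 0.0674) and after the adjustment for nearby rows (0.55, adjusted p = 0.0537). MMP1, the interstitial collagenase, differed by 0.71 (SE 0.25, adjusted p = 0.0572). It passed as higher under 8 of 26 alternatives, among them normexp (0.59, adjusted p = 0.0126), and without P15 replicate 3 or P18 replicate 2 (0.71 and 0.87). MMP9, gelatinase B, differed by -0.24 (SE 0.26, adjusted p = 0.533), with P15 replicates 1 and 2, at -3.21 and -3.44, the lowest arrays of all 12. ADAMTS4, MMP7, MMP13, MMP16, MMP19 and MMP23B differed by between -0.98 and 0.22 and did not pass, and MMP16 was not well above background in P18. Without NP15 replicate 4 the MMP23B difference was -0.78 (adjusted p = 0.0777).

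No inhibitor passed in P18 against NP15 by limma, and 2 of 4 were lower at an unadjusted p under 0.05, TIMP2 and TIMP3, against 40.3% of all genes that passed that p in either direction. TIMP1, a soluble inhibitor that is abundant in the corpus luteum, was at 4.48, 4.54, 4.45 and 2.65 in NP15, 4.16, 3.72, 4.38 and 4.57 in P15 and 4.58, 4.54, 4.51 and 4.65 in P18. All arrays but NP15 replicate 4 lay between 3.72 and 4.65. The difference was 0.54 (SE 0.37, adjusted p = 0.303), and 0.08 (SE 0.17, adjusted p = 0.741) without that array. TIMP2 differed by -0.34 (SE 0.15, adjusted p = 0.118). Its probe was saturated on all 4 NP15 and all 4 P15 arrays and on 0 P18 arrays. This leaves its NP15 and P15 values, and so the size of the difference, uncertain. TIMP3, which binds to the matrix, differed by -0.48 (SE 0.18, adjusted p = 0.0681) with all P18 arrays below all NP15 arrays, and it passed without NP15 replicate 2 (-0.60, adjusted p = 0.0311) and with same-numbered arrays as blocks (-0.48, adjusted p = 0.0496). TIMP4 differed by 0.32 (SE 0.25, adjusted p = 0.372), and by 0.07 (adjusted p = 0.809) without NP15 replicate 4, where it lay in the low area at -6.04, the lowest NP15 value. With all arrays and normexp it passed as higher (0.41, adjusted p = 0.0425).

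The 4 genes that met the rule by name only differed by between -0.11 and 0.19, and none passed. ITGB4BP, also in the low area, was at 0.14 and without NP15 replicate 4 at -0.06. COL4A3BP, a ceramide transporter, differed by 0.04 (SE 0.30, adjusted p = 0.944). NP15 replicate 4 was at -0.18 in the low area and the other 3 NP15 arrays between 1.24 and 1.47, and without it the gene was lower in P18 (-0.35, adjusted p = 0.0336). ITGB3BP, a centromere protein, differed by 0.19 (SE 0.14) and passed as higher with quantile normalization (0.42) and median centring (0.43).

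**Figure D4:**
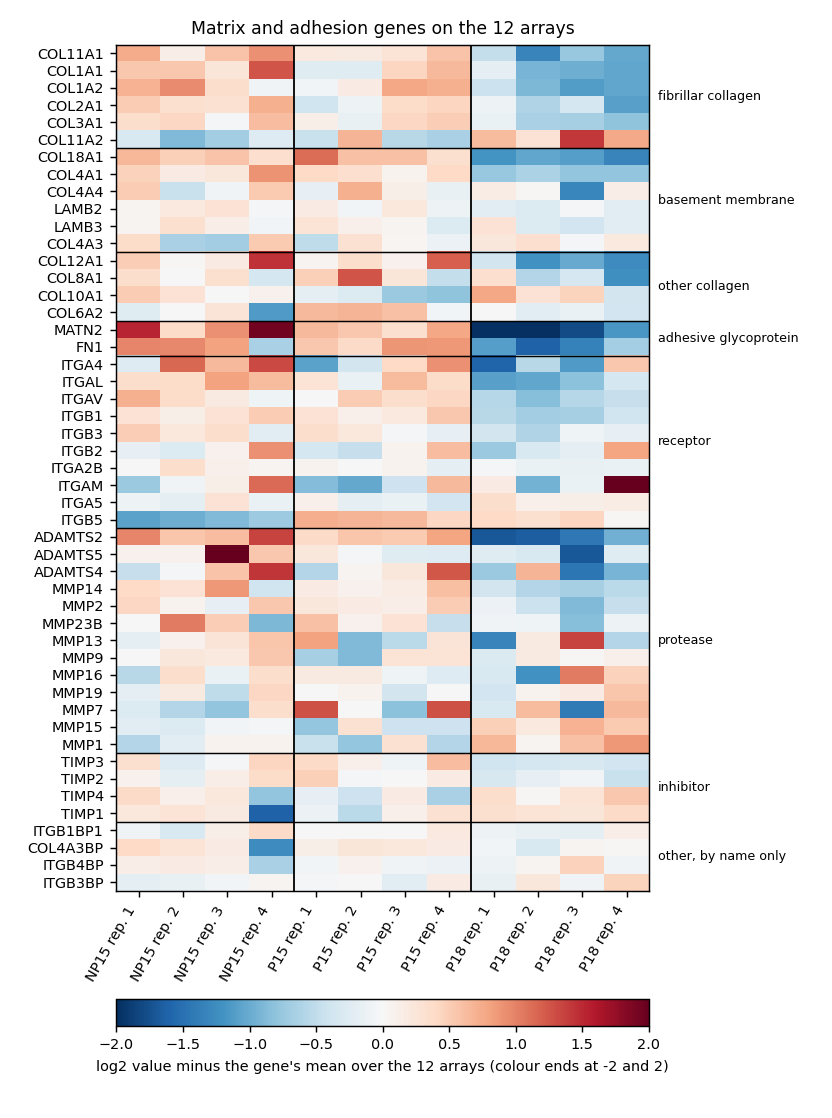
Values of the 49 tested genes on the 12 arrays, each as its log2 value minus its mean over all arrays, by class and ordered by the P18 difference from NP15. The P18 columns are blue for COL11A1, COL1A1, COL1A2, COL2A1, COL3A1, COL18A1, COL4A1, FN1 and MATN2, and NP15 replicate 4 stands out in COL4A3BP, FN1 and TIMP1.

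P18 was also set against P15, both from pregnant cows. Of the 49 members 16 were lower and 4 higher, 32.7% and 8.16%, against 15.5% and 12.8% of all genes (28.3% called in all). Of all called genes 45.2% were higher, and 72.7% with median centring, 60.5% with normexp, 62.7% with no filter and 31.9% after adjustment for nearby rows. The median log2 difference of the members was -0.40, and that of all genes -0.03. This comparison shares the P18 arrays with the one above and is no separate evidence of their level.

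COL18A1 fell 3.52-fold against P15 (-1.82, SE 0.16, limma adjusted p = 3.96e-05), FN1 3.62-fold (-1.86, SE 0.34, adjusted p = 0.00254) and COL4A1 2.06-fold (-1.04, SE 0.16, adjusted p = 0.000776). In these 3 genes every P18 array lay below every P15 array. Among the fibrillar collagens the differences were -1.27 for COL1A2, -1.21 for COL11A1, -0.93 for COL1A1 and -0.78 for COL3A1, all called as lower. COL12A1 differed by -1.39 and was called as well. COL2A1 on its brighter probe differed by -0.61 and did not pass (adjusted p = 0.0750), while its other probe did (-1.15, adjusted p = 0.000548).

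Among the receptors ITGB1 (-0.86), ITGAV (-0.93) and ITGAL (-1.11) were called as lower, and ITGB5 did not pass (-0.32, SE 0.12, adjusted p = 0.0720). The ITGB5 difference passed without NP15 replicate 4 (-0.32, adjusted p = 0.0481) and without P15 replicate 4 (-0.39, adjusted p = 0.0487). MMP2 (-0.73), MMP14 (-0.79) and MATN2 (-2.31) were lower on the probes that stood for them. On a further probe described as MMP2, ABR7096, all P18 arrays lay above all P15 arrays, with means of -4.15 and -5.12. On a further and brighter probe described as MMP14, ABR7082, the means were 1.40 in P18 and 1.35 in P15. ADAMTS2 was called as lower too, but its P18 values are below background and its P15 mean lies under the level that counted as well above background in P18, so no size is given. With normexp MMP14 (-0.32) and MATN2 (-0.41) no longer passed, and ITGAL was at 0.04. MATN2 was at least 1.04-fold lower in P18 than in P15.

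TIMP3 was lower against P15 (-0.62, SE 0.18, adjusted p = 0.0243), with values of 0.69, 0.41, 0.21 and 0.92 in P15 and -0.10, -0.04, -0.02 and -0.08 in P18. The groups did not overlap on this probe. On a further probe described as TIMP3, ABR7090, they did, with means of 3.66 in P15 and 3.38 in P18. The call was lost with median centring (-0.39) and when replicate 1 (-0.57) or 4 (-0.50) of P15 or replicate 1 (-0.61) or 4 (-0.61) of P18 was left out, at adjusted p from 0.0510 to 0.0642 for these arrays.

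The 4 genes that were higher than in P15 were COL11A2 (1.02, SE 0.31, adjusted p = 0.0314), MMP1 (0.91, SE 0.25, adjusted p = 0.0202), MMP15 (0.80, SE 0.20, adjusted p = 0.0129) and COL10A1 (0.78, SE 0.24, adjusted p = 0.0297). All 4 overlapped between the groups. COL10A1 was lost without P15 replicate 3 (0.70) or 4 (0.68) or P18 replicate 1 (0.62), 2 (0.78) or 3 (0.73). It was also lost after adjustment for nearby rows (0.56, adjusted p = 0.131) and by rows and columns (0.43, adjusted p = 0.189), with quantile normalization (0.75, adjusted p = 0.0695) and on the 8 arrays alone (adjusted p = 0.0523), and its probe lies in row 187. MMP1 was lost without P15 replicate 2 (0.78) or 4 (0.84) or P18 replicate 4 (0.81). COL11A2 was lost without P15 replicate 1 (0.95), 3 (0.91) or 4 (0.88) or P18 replicate 1 (1.06), 3 (0.80) or 4 (1.02), and its probe was well above background on 1 array of either group. That call was lost too with same-numbered arrays as blocks (adjusted p = 0.0701), with quantile normalization (0.70, adjusted p = 0.128) and on the 8 arrays alone (adjusted p = 0.0556). Among the falls, COL1A1 was lost without P15 replicate 3 (-0.84) or 4 (-0.76) or P18 replicate 2 (-0.88), 3 (-0.87) or 4 (-0.85), and MMP14 without P15 replicate 4 (-0.68) or P18 replicate 3 (-0.75). With median centring MMP2 (-0.50), MMP14 (-0.56), COL3A1 (-0.55) and COL1A1 (-0.70) no longer passed, nor did MMP14 (-0.63) and COL1A1 (-0.80) with quantile normalization.

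TIMP4 passed as higher without NP15 replicate 4 (0.56, adjusted p = 0.0313), and COL2A1 as lower without P15 replicate 1 (-0.77) or P18 replicate 1 (-0.75).

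Several members had a further probe on the array, either named for the same gene or described as such under a non-bovine or similar sequence, and these show how far a value depends on the probe. For TIMP1 and COL1A1 a probe described as similar overlapped the member's own, and both pairs are printed with the longest run of bases they share in capitals.

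TIMP1, probe ABR42: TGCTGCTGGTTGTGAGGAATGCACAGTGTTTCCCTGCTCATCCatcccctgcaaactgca
TIMP, number not given, probe ABR1901: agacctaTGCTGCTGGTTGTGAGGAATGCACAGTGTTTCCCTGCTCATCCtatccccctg
COL1A1, probe ABR1608: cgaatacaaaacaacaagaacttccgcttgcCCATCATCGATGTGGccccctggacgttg
COL1A1 (described), probe ABR1563: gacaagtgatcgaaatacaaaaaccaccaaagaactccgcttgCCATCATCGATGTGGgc

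The TIMP pair shares 43 bases. On NP15 replicate 4 the ABR42 probe, in the low area, was at 2.65 and ABR1901, elsewhere on the array, at 4.14, while on the other NP15 arrays ABR42 read 4.45 to 4.54 and ABR1901 4.36 to 4.48. The P18 difference from NP15 was 0.06 (SE 0.16, adjusted p = 0.817) on ABR1901. The COL1A1 pair shares a run of 15 bases, and the fall seen on ABR1608 was also called on ABR1563 (-0.93, SE 0.30, adjusted p = 0.0401).

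Over 11 such pairs of probes tested in P18 against NP15, 8 differed from 0 in the same direction on both. TIMP1 entered with both ABR7092 and ABR1901. Its pair with ABR7092 differed in direction, at 0.54 on ABR42 and -0.005 on ABR7092. ABR42 lay in the low area of NP15 replicate 4, and the count of pairs was made with that array in. FN1, COL1A1 and COL2A1 were called as lower on both of their probes. MMP2 was called in opposite directions: probe ABR109 was lower, as given above, and ABR7096, described as MMP2 under a non-bovine accession, was higher, with -5.23, -5.36, -4.96 and -5.18 in NP15, -4.61, -4.84, -5.08 and -5.95 in P15 and -4.35, -4.43, -4.19 and -3.64 in P18 (1.03, SE 0.27, limma adjusted p = 0.0145). All P18 arrays were above all others on that probe, and which of the MMP2 probes follows the bovine transcript was not tested. For MMP14 the second and brighter probe, ABR7082, differed by -0.10 (SE 0.19, adjusted p = 0.725), and the MMP14 fall is therefore seen on 1 of 2 probes. TIMP2 on ABR7091, which was lower in all P18 arrays than in all NP15 arrays, was called as lower (-0.46, SE 0.13, adjusted p = 0.0231). The TIMP3 probes differed in direction, at -0.48 on ABR162 and 0.34 (SE 0.40, adjusted p = 0.563) on ABR7090, and neither passed. ABR7090 lay in the low area of NP15 replicate 4, where it read 1.56, against 3.22 to 3.90 on the other NP15 arrays.

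**Figure D5:**
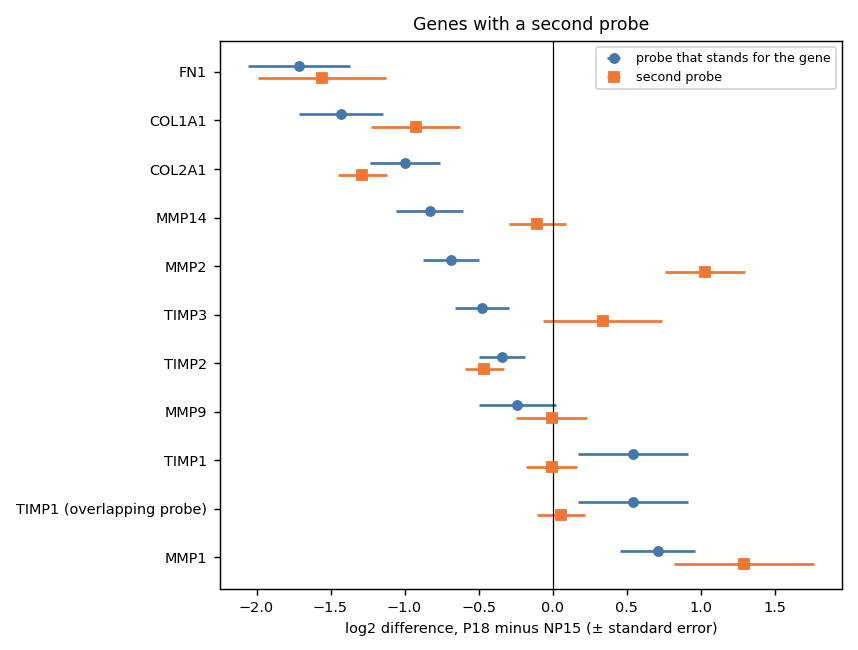
log2 difference of P18 from NP15, with its standard error, on the probe that stands for the gene (circles) and on a second probe named for or described as the same gene (squares). FN1, COL1A1 and COL2A1 are below 0 on both probes, while the MMP2 probes lie at -0.69 and 1.03.

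Of 7 tested chains known only from a probe's description, 2 were lower in P18 against NP15 and none higher, against 18.6% and 10.3% of all genes. The probe described as COL6A3, a chain of type VI collagen, was at 0.29, -0.79, -0.71 and -0.09 in NP15 and -1.36, -1.78, -1.48 and -1.98 in P18, and the difference was -1.32 (SE 0.28, adjusted p = 0.00508). The probe described as LAMA4, a laminin chain of vessel basement membranes, differed by -0.85 (SE 0.17, adjusted p = 0.00397). On both, the P18 arrays lay below all NP15 arrays. The probe described as ITGA6, the alpha chain of a laminin receptor, differed by 0.13 (SE 0.15, adjusted p = 0.540). Those described as COL22A1 (-0.48), LAMB1 (-0.24), ITGB7 (0.24) and MATN4 (0.58) did not pass either.

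A list of other matrix genes, 74 genes such as crosslinking enzymes, proteoglycans and elastic fibre proteins, had 45 tested genes, and DCN and LUM are also on the fibroblast list. In P18 against NP15 8 were lower and 1 higher, with a median of -0.18. That is 17.8% lower, near the 18.6% of all genes, and 2.22% higher, against 10.3%. LOX, the enzyme that crosslinks collagen, fell 2.99-fold (-1.58, SE 0.35, limma adjusted p = 0.00613), the proteoglycan versican, VCAN, 2.01-fold (-1.01, adjusted p = 0.0264), and fibrillin 1, FBN1, 1.51-fold (-0.59, adjusted p = 0.0144). SPARC, a collagen-binding glycoprotein, fell 1.38-fold (-0.47, adjusted p = 0.00881), and SDC2 1.40-fold (-0.48, adjusted p = 0.0126). The cartilage proteoglycan ACAN rose (1.13, adjusted p = 0.0446). Its probe lies in row 187, near the array's edge, and was well above background on 3 P18 arrays. LOX, SPARC, SDC2 and FBN1 had the smallest p of this list, and VCAN and ACAN are given besides. In P18 against P15 6 were lower (13.3%, against 15.5% of all genes) and 1 higher (2.22%, against 12.8%). In P15 against NP15 1 was lower (2.22%, against 0.581% of all genes), SDC2, whose probe lies in row 190 near the other edge.

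Markers of the gland's cell types were read on the same arrays, and their counts are to be read against the 18.6% of all genes that were lower and the 10.3% that were higher in P18 than in NP15. Luteal steroidogenic markers had all 9 tested genes well above background on every array, as the tissue label states. In P18 against NP15 3 of these were lower, SCARB1 (-1.14), FDXR (-0.70) and HSD3B1 (-0.70), and PTGFR was higher (1.36). The probes of FDXR and HSD3B1 lie in rows 186 and 192, at the array's edge. HSD3B1 was also called as lower in P15 than in NP15 (-1.47, limma adjusted p = 0.000876). The part of array position in these falls was not tested. Of the endothelial markers 3 of 9 tested were lower (33.3%), CDH5 (-1.13), PECAM1 (-1.06) and VWF (-0.87), and their summed level on a linear scale was 8.56 to 13.1 in NP15 and 8.18 to 9.97 in P18. Of the fibroblast, pericyte and smooth muscle markers 1 of 9 was lower (11.1%), ACTA2 (-1.88), whose probe lies in row 183, with a summed level of 35.2 to 50.3 in NP15 and 38.7 to 42.8 in P18. Such sums follow mainly the brightest probes. In this list these were DCN and LUM, which differed by -0.09 and -0.02 and did not pass, so the sum says little of the other markers. Of the leukocyte markers 1 of 11 was lower (9.09%), PTPRC (-2.37, below that level on all P18 arrays), and 1 higher, CD2 (1.03), with a summed level of 1.41 to 2.97 in NP15 and 1.57 to 4.55 in P18. Of 3 platelet and red cell markers, which include the member ITGA2B, 1 was higher, and of 3 follicle markers none passed. The part of these markers in the falls of the collagens, FN1 and integrins was not tested.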

How the data were processed

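The deposited scanner files hold intensity values, the processed signal of each 60-base probe, which the authors obtained from Agilent Feature Extraction 9.5, per the submitters' processing notes (9.5.1.1 per the file headers). The authors' deposited value table holds log2 values of the same signals, shifted by 1 constant per array, with column medians from -3.32 to -2.99, and was an alternative. Here log2 processed signals were set relative to each array's 75th percentile, and spots marked as outliers (at most 9 per array) were left out. Probes were named from the files and a bovine gene table of the assembly ARS-UCD2.0. Of the 12605 kept probes, the brightest under each name stood for that gene, which gave 12397 genes. A further probe known by its description did not stand for the member. For MMP14, MMP9 and TIMP3 such a probe was brighter than the one that did. limma 3.58.1 (R 4.3.3) then tested the comparisons on group means of all 12 arrays, with two-sided p-values adjusted by Benjamini-Hochberg over all genes and a threshold of 0.05. The fits were tested on simulated data. Replicates are separate animals per the series' design text, and their number limits the precision.

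Named genes were a list of 23 symbols where measured, up to 4 called members per class, comparison and direction with the smallest p, the member with the smallest p where a class had none called, and genes with 2 kept probes. MMP7, ITGA4, LAMB2, COL6A2 and other members outside this rule are given by range or value, and those singled out were chosen after their values were seen. The members and lists were chosen with earlier results of these data known. The 23 further probes described as members were chosen by description alone. Alternatives were quantile normalization, median centring, normexp with an offset of 50, the deposited table, other filters, marked spots kept, adjustment for nearby rows, no outer rows, the 8 arrays of a comparison, same-numbered arrays as blocks and each array left out. Leaving out dim areas and adjusting by rows and columns were added after seeing the data.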

Additional observations from a re-analysis of the deposited data

Results flagged for a closer look

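In each named gene and group of 4 arrays, the gap of the highest or lowest array to its nearest neighbour was set against the group's whole range. Of 99 such groups 10 were marked by a gap above Dixon's 95% critical value, and chance alone marks about 1 in 20 groups. In 4 of them the array was NP15 replicate 4, each time the lowest and in the low area of that array: FN1 at -3.99 on probe ABR489 and 0.95 on probe ABR7104, TIMP1 at 2.65 and COL4A3BP at -0.18. ADAMTS5 was lowest on P18 replicate 3 (-7.03, others -5.65 to -5.58). COL1A1 was highest on P18 replicate 1 (-1.33, others -2.18 to -2.06), as was ITGA5 (-2.03, others -2.28 to -2.24). ITGA5 was also highest on NP15 replicate 3 (-2.11, others -2.56 to -2.49), COL11A2 on P15 replicate 2 (-6.48, others -7.79 to -7.59) and MMP14 on P15 replicate 4 (-3.89, others -4.39 to -4.32).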

How the results depend on the processing

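Counts of members called as lower stayed within 1.5 times under the alternatives run: 13 to 21 in P18 against NP15, 11 to 21 in P18 against P15 and 0 in P15 against NP15. With 1 array left out they were 15 to 19, 14 to 18 and 0. Counts called as higher in P18 against NP15 were 6 with quantile normalization, 6 with median centring, 5 with normexp, 6 with no filter and 1 without the outer rows, and 2 to 4 with 1 array left out. In P18 against P15 they were 2 on probes above background on all 12 arrays, 2 without the outer rows and 2 on the 8 arrays alone, and 1 to 5 with 1 array left out (1 without P15 replicate 4, and 2 without P15 replicate 3 or P18 replicate 1, 3 or 4). In P15 against NP15 the count was 0 without the outer rows, which hold ITGB5, and 1 with any array left out. The members' median in P18 against NP15 was -0.10 with median centring, -0.17 with normexp, -0.27 with no filter and -0.45 after adjustment by rows and columns, and -0.41 to -0.32 with 1 array left out. In P18 against P15 it was -0.17 with median centring, -0.26 with normexp, -0.48 after adjustment for nearby rows and -0.52 by rows and columns, and -0.47 to -0.29 with 1 array left out. In P15 against NP15 it was -0.0020 with normexp and -0.12 to -0.06 with 1 array left out. With a call on either side, directions turned for ITGAL with normexp (0.0522 against NP15, 0.0419 against P15) and for COL4A3BP in P18 against NP15 (-0.35 with dim areas left out and -0.35 without NP15 replicate 4, the lowest of -0.348 to 0.203 with 1 array left out). The cause was not tested. Of 93 differences of named genes, 27 that were not called turned without gaining a call, among them FN1 and TIMP1 in P15 against NP15 (-0.25 and -0.28 without NP15 replicate 4). Same-numbered arrays are separate animals and their deviations correlated at -0.0389 to 0.293, so the numbers were not taken as pairs. With a replicate block 19 members were lower and 3 higher in P18 against NP15, 17 and 3 in P18 against P15 and 0 and 1 in P15 against NP15. Called genes numbered 71 with the block in P15 against NP15 and 121 without. In that comparison the count of all genes was 74 with normexp, 40 after adjustment for nearby rows, 51 by rows and columns, 58 on the 8 arrays alone and 0 without the outer rows, and it was 60, 65 and 69 when NP15 replicate 1, 2 or 3 was left out and 64 and 77 when P15 replicate 2 or 3 was. With no filter 5406 genes were called in P18 against NP15 and 5333 in P18 against P15, against 3585 and 3506. The higher share of calls in P15 against NP15 was 40.5%, and 59.5% with normexp. A slide block adds nothing to a fit of group means, since slide follows from group, and so it was no separate check of P15 against NP15.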
